A study of Capra hircus with 9 samples.

Results

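The miR-17-92 cluster is a group of microRNA (miRNA) hairpins cut from 1 primary transcript. Its guide strands, the arms that are loaded into the silencing complex more often, are chi-miR-17-5p, chi-miR-18a-5p, chi-miR-19a, chi-miR-20a-5p, chi-miR-19b-3p and chi-miR-92a-3p. These 6 miRNAs were chosen by name from the 1359 miRNAs in the table. The rule did not use their levels, though earlier results of these data were known. All 6 were among the 696 miRNAs that reached at least 0.5 CPM (the count scaled to a common library size) in at least 3 libraries and were tested. Small RNA was sequenced from mammary gland tissue of Laoshan dairy goats at late lactation (LL, 240 days postpartum), in the dry period (DP, 300 days postpartum) and at late gestation (LG, 140 days after mating). There were 3 goats per stage and 1 library per goat, so that each goat was sampled once and no stage followed another in the same animal. All goats were about 4 years old, in the third parity, kept under the same conditions, and neither a treatment nor a genetic change distinguished the stages. The comparisons DP vs. LG, DP vs. LL and LL vs. LG ask how the levels of the cluster differ between the end of lactation, the dry period and the end of gestation.

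Most miRNAs pair with messenger RNAs through the seed, a short stretch near the 5′ end, and lower their translation and stability. The cluster is known for promoting proliferation and limiting apoptosis, in part through repression of the apoptosis gene BIM, and it is switched on by MYC. By shared seed its guide strands fall into the miR-17 family (miR-17-5p and miR-20a-5p), the closely related miR-18a, the miR-19 family (miR-19a and miR-19b-3p) and the miR-92a family, and the related clusters miR-106a-363 and miR-106b-25 carry further members of these families. Late gestation is the time when the secretory epithelium of the udder multiplies and prepares to make milk, whereas in the dry period that epithelium regresses and the gland is remodeled.

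Library totals lay between 13672653 and 34378995 counts, so that 3 counts correspond to between 0.0873 and 0.219 CPM. A single miRNA, chi-miR-148a-3p, took 48.4% to 59.4% of the counts in LL, 8.81% to 10.8% in DP and 39.4% to 44.6% in LG. Levels below are therefore in CPM after scaling by the trimmed mean of M values (TMM), which lowers the weight of such a miRNA. After this scaling the median log2 fold change of all tested miRNAs was 0.18 between DP and LG, 0.12 between DP and LL and 0.17 between LL and LG, and members are read against these medians. Reads are counted per mature miRNA, so that length does not enter a level, although ligation and amplification can favor some miRNAs over others.

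In the reference annotation of the goat genome (ARS1.2), the 6 hairpins lie on chromosome 12 between positions 20403365 and 20404150, a span of 786 bases. In order of position they are MIR92A (20403365 to 20403463), MIR19B (20403485 to 20403571), MIR20A (20403612 to 20403718), MIR19A (20403787 to 20403868), MIR18A (20403925 to 20404013) and MIR17 (20404067 to 20404150). The gaps between neighbors measured 21, 40, 68, 56 and 53 bases. No other annotated gene overlaps the span, and the nearest ones are GPC5, which encodes a glypican of the cell surface, at 56987 bases and the long non-coding RNA gene LOC102168837 at 53837 bases.

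Although the hairpins share a transcript, their guide strands differed in level by more than 100-fold. In LG the mean level was 434 CPM for chi-miR-17-5p, 8.79 CPM for chi-miR-18a-5p, 68.8 CPM for chi-miR-19a, 767 CPM for chi-miR-20a-5p, 215 CPM for chi-miR-19b-3p and 2902 CPM for chi-miR-92a-3p. Ranked by mean CPM over all libraries, chi-miR-92a-3p stood at place 46 of 696, chi-miR-20a-5p at 73, chi-miR-17-5p at 99, chi-miR-19b-3p at 126, chi-miR-19a at 197 and chi-miR-18a-5p at 353. This order of the 6 levels was the same in every one of the 9 libraries. The level did not follow the position along the cluster, since the lowest member lies next to MIR17 and the highest at the far end.

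**Figure D1:**
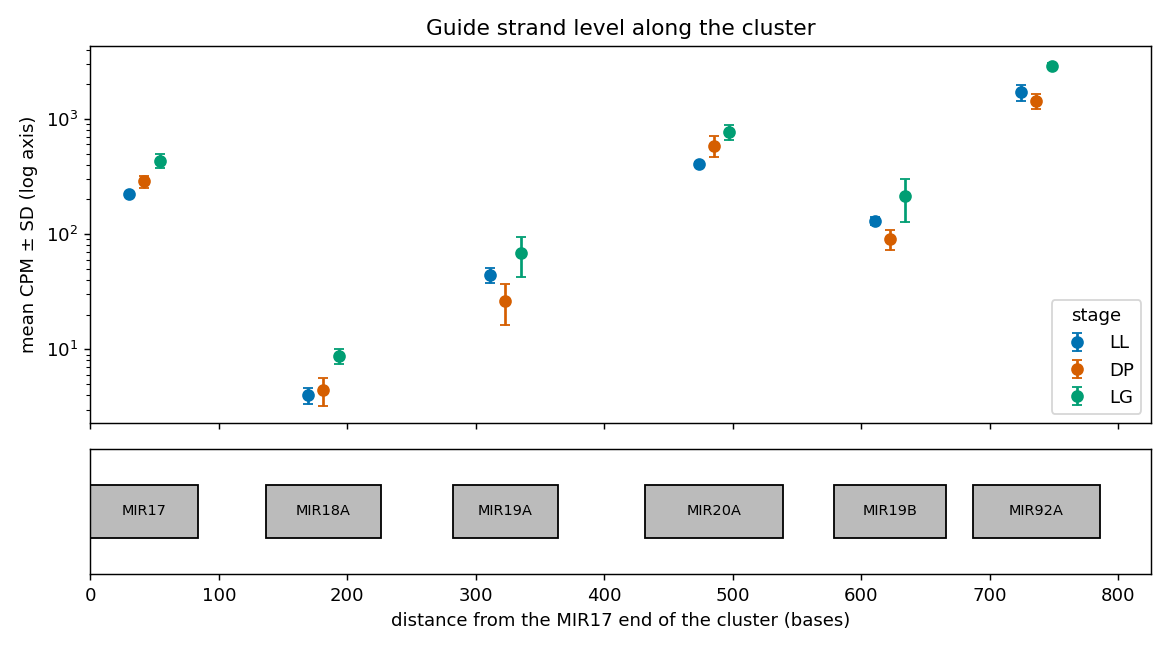
Level of each guide strand along the cluster. The upper axis shows mean CPM with its SD over 3 libraries per stage (log axis), with the stages set side by side around the middle of each hairpin, and the lower boxes show the hairpins to scale by distance from the MIR17 end in bases; chi-miR-92a-3p, at the far end, reached 2902 CPM in LG and chi-miR-18a-5p only 8.79 CPM.

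The miR-17 family was highest in LG and lowest in LL. The level of chi-miR-17-5p was 222, 214 and 228 CPM in the LL libraries, 259, 327 and 275 CPM in DP and 501, 385 and 417 CPM in LG. Its 3 stages did not overlap, and the mean was 222 ± 7.09 CPM in LL, 287 ± 35.5 in DP and 434 ± 59.8 in LG (SD, n = 3). The level of chi-miR-20a-5p was 398, 425 and 391 CPM in LL, 719, 476 and 564 CPM in DP and 896, 696 and 709 CPM in LG. For chi-miR-20a-5p every LL library was below every DP and LG library, but DP replicate 1 exceeded LG replicates 2 and 3. Its mean was 405 ± 18.0 CPM in LL, 586 ± 123 in DP and 767 ± 112 in LG (SD, n = 3).

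The scarcest member, chi-miR-18a-5p, was also highest in LG. It measured 3.53, 3.70 and 4.70 CPM in LL, 5.71, 3.31 and 4.32 CPM in DP and 9.19, 7.30 and 9.88 CPM in LG. The LG libraries lay above all others, while LL and DP overlapped, with means of 3.98 ± 0.630 and 4.45 ± 1.21 CPM (SD, n = 3). Between 45 and 436 counts stood behind each of these values, so counting error was larger here than for the other members.

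The miR-19 family was lowest in DP. The level of chi-miR-19a was 50.5, 37.9 and 43.5 CPM in LL, 36.0, 15.5 and 27.7 CPM in DP and 88.6, 78.6 and 39.2 CPM in LG. The level of chi-miR-19b-3p was 135, 136 and 119 CPM in LL, 100, 70.5 and 101 CPM in DP and 289, 237 and 119 CPM in LG. For both miRNAs every DP library was below every LL and LG library, and LG replicate 3 stood within or at the edge of the LL range while the other LG libraries lay above it. This made the spread in LG wide, with means of 68.8 ± 26.1 CPM for chi-miR-19a and 215 ± 87.2 CPM for chi-miR-19b-3p (SD, n = 3).

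The most abundant member, chi-miR-92a-3p, measured 1378, 1809 and 1914 CPM in LL, 1225, 1642 and 1423 CPM in DP and 3060, 2879 and 2765 CPM in LG. The LG libraries were tightly grouped at 2902 ± 149 CPM (SD, n = 3) and stood above all LL and DP libraries, which overlapped. The stage order of the means was thus LG, DP, LL for chi-miR-17-5p, chi-miR-18a-5p and chi-miR-20a-5p, and LG, LL, DP for chi-miR-19a, chi-miR-19b-3p and chi-miR-92a-3p. DP and LL, the neighbors in both orders, did not pass the test for any member.

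**Figure D2:**
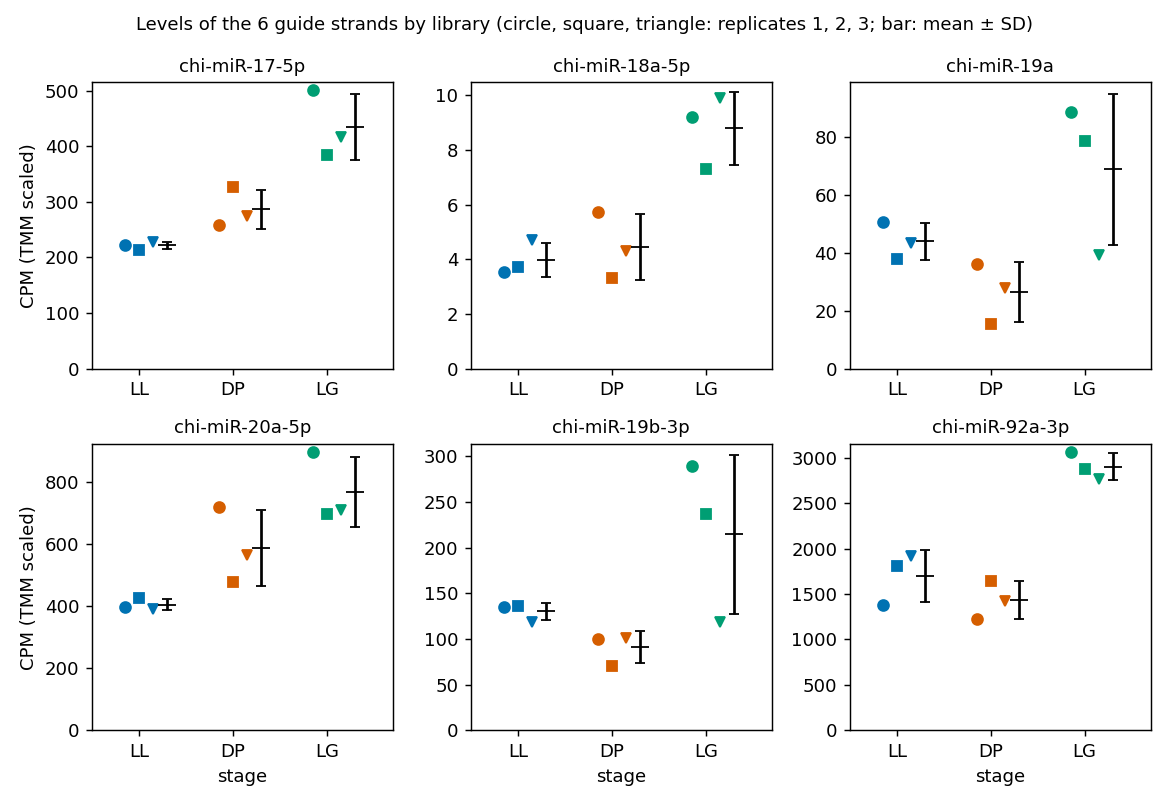
Level of each guide strand in CPM (TMM scaled, axes from 0) in the 9 libraries, colored by stage, with circles, squares and triangles for replicates 1, 2 and 3 and a black bar for the mean ± SD. All LG libraries lie above all others for chi-miR-17-5p, chi-miR-18a-5p and chi-miR-92a-3p, and LG replicate 3 lies apart from the other LG libraries for chi-miR-19a and chi-miR-19b-3p.

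Summed over the 6 guide strands, the cluster made up 0.203% ± 0.0394 of the counts in LL, 0.251% ± 0.0196 in DP and 0.529% ± 0.0238 in LG (SD, n = 3). In scaled units the sum ranged from 2187 to 2700 CPM in LL, from 2345 to 2534 CPM in DP and from 4059 to 4844 CPM in LG. LL and DP overlapped in scaled units, and LG lay above both on either scale.

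In DP vs. LG, 5 of 6 members were lower in DP at an adjusted p under 0.05, where 11.1% of the 696 tested miRNAs were called lower (12.6% to 15.3% with other scalings, which called 5 or 6 members). Of these, 3 also passed an absolute log2 fold change of 1 and counted as DE-miRNAs, against a background of 9.91% of tested miRNAs. The median log2 fold change of the members was -1.003, against 0.18 over all tested miRNAs. The largest difference was that of chi-miR-19a, at -1.38 on the log2 scale (SE 0.39, adjusted p = 0.0171). It was followed by chi-miR-19b-3p at -1.24 (SE 0.33, adjusted p = 0.0131) and chi-miR-92a-3p at -1.02 (SE 0.21, adjusted p = 0.00375). The members chi-miR-18a-5p, at -0.99 (SE 0.32, adjusted p = 0.0339), and chi-miR-17-5p, at -0.60 (SE 0.21, adjusted p = 0.0461), passed the test with smaller differences, and the call of chi-miR-17-5p was lost with the replicate block, with only these 2 stages fitted and without LG replicate 1 or 3. The difference of chi-miR-20a-5p, at -0.39 (SE 0.22, adjusted p = 0.207), did not pass in edgeR, but it was called at -0.60 by DESeq2, at -0.69 with chi-miR-148a-3p left out before TMM, at -0.75 with at least 10 counts in every library and at -0.75 without DP replicate 1. In the same comparison the libraries of DP and LG did not overlap for 5 members, all lower in DP, and for 17.0% of tested miRNAs in that direction. Only 1 member was called without LG replicate 1, namely chi-miR-92a-3p, and 3 were called without LG replicate 3 or when only the libraries of these 2 stages were fitted.

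In LL vs. LG, 4 of 6 members were lower in LL, where 4.89% of tested miRNAs were called lower (6.61% to 13.2% with other scalings, which called 4 or 5 members), and the median log2 fold change of the members was -0.85 against 0.17 over all. On the log2 scale chi-miR-18a-5p was at -1.14 (SE 0.32, adjusted p = 0.0391), the only DE-miRNA among the members in the fit as reported (3 to 5 with other scalings), where 3.88% of tested miRNAs were DE-miRNAs lower in LL. It was -0.97 for chi-miR-17-5p (SE 0.21, adjusted p = 0.0120), -0.92 for chi-miR-20a-5p (SE 0.22, adjusted p = 0.0206) and -0.77 for chi-miR-92a-3p (SE 0.21, adjusted p = 0.0336). The miR-19 family did not pass, with -0.72 for chi-miR-19b-3p (SE 0.32, adjusted p = 0.147) and -0.65 for chi-miR-19a (SE 0.38, adjusted p = 0.266). With library size only and without LG replicate 3, chi-miR-19b-3p was called lower. The libraries of the 2 stages did not overlap for the 4 called members, and for 17.4% of tested miRNAs in that direction. These calls rested on few libraries: no member was called without LL replicate 2, 1 without LL replicate 1 and 2 without LG replicate 1. Without LG replicate 3, 4 were called, with chi-miR-19b-3p in place of chi-miR-18a-5p.

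In DP vs. LL, no member was called by edgeR, where 30.2% of tested miRNAs were called, and chi-miR-20a-5p was the 1 member with an unadjusted p under 0.05 (0.0356). The members did not share a sign. On the log2 scale chi-miR-20a-5p was at 0.53 (SE 0.22, adjusted p = 0.0945), chi-miR-17-5p at 0.37 (SE 0.21, adjusted p = 0.200) and chi-miR-18a-5p at 0.16 (SE 0.32, adjusted p = 0.737). It was -0.25 for chi-miR-92a-3p (SE 0.21, adjusted p = 0.394), -0.52 for chi-miR-19b-3p (SE 0.32, adjusted p = 0.244) and -0.74 for chi-miR-19a (SE 0.38, adjusted p = 0.166). The libraries did not overlap for chi-miR-17-5p and chi-miR-20a-5p, higher in DP as for 21.0% of tested miRNAs, and for chi-miR-19a and chi-miR-19b-3p, lower in DP as for 20.3%. DESeq2 and limma-voom called no member either, whereas scaling by library size alone called chi-miR-17-5p at 0.73 and chi-miR-20a-5p at 0.92, both higher in DP. Without DP replicate 2, 1 member was called.

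**Figure D3:**
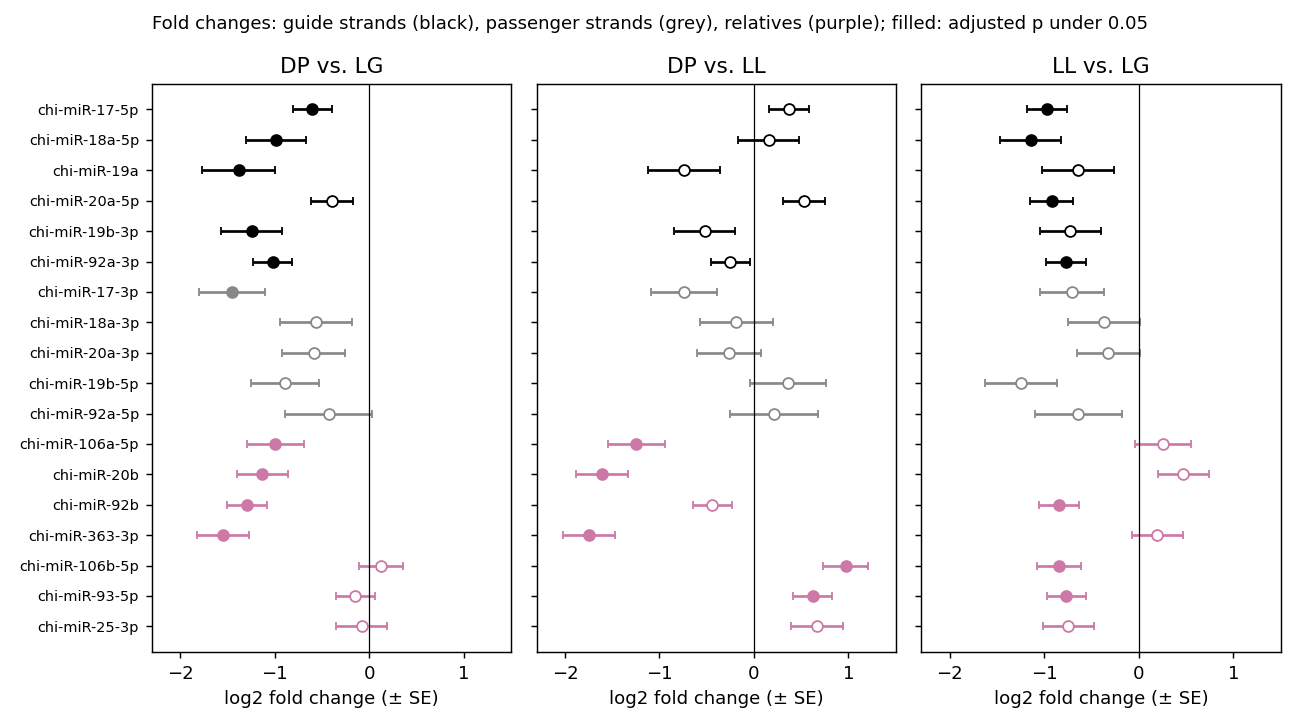
Log2 fold change with its SE in the 3 comparisons for the guide strands (black), the passenger strands (grey) and the members of the related clusters (purple); filled circles passed an adjusted p under 0.05. All 6 guide strands lie left of 0 in both comparisons with LG, whereas against LL the DP values range from -0.74 to 0.53.

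Ratios between miRNAs of the same library are free of the library scaling. Of the guide strand counts, chi-miR-92a-3p made up 67.6% ± 4.10 in LL, 58.8% ± 6.30 in DP and 66.2% ± 2.64 in LG (SD, n = 3). The share of chi-miR-20a-5p was 16.3% ± 1.87 in LL, 24.3% ± 5.98 in DP and 17.4% ± 1.13 in LG, and that of chi-miR-17-5p was 8.92% ± 1.08, 11.8% ± 0.972 and 9.87% ± 0.756 (SD, n = 3). On average the mix in DP thus held less chi-miR-92a-3p and more of the miR-17 family, and the shares of chi-miR-92a-3p and chi-miR-20a-5p varied most in DP. Within the miR-17 family, the count of chi-miR-20a-5p was 1.83 ± 0.14 times that of chi-miR-17-5p in LL, 2.10 ± 0.66 in DP and 1.77 ± 0.056 in LG (SD, n = 3), and the DP libraries alone spanned 1.46 to 2.78. Between the families, chi-miR-17-5p had 1.57 to 1.92 times the count of chi-miR-19b-3p in LL, 2.58 to 4.63 times in DP and 1.63 to 3.51 times in LG. LL and DP did not overlap in this ratio, but in the fit with chi-miR-17-5p as library size chi-miR-19b-3p did not pass in DP vs. LL, at -0.86 on the log2 scale (SE 0.34, adjusted p = 0.0920).

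A fit with the count of chi-miR-92a-3p as the size of each library tested these ratios over all 695 other miRNAs. In DP vs. LL, chi-miR-20a-5p was higher relative to chi-miR-92a-3p by 0.81 on the log2 scale (SE 0.28, adjusted p = 0.0496), where 22.9% of miRNAs were called higher on this scale. This call lay at the threshold and was lost in 8 of the 9 fits that left out 1 library, DP replicate 2 being the exception. The value of chi-miR-17-5p was 0.60 (SE 0.21, adjusted p = 0.0548, called only without LL replicate 1), and chi-miR-18a-5p, chi-miR-19a and chi-miR-19b-3p ranged from -0.46 to 0.45. For the contrasts with LG edgeR called no member relative to chi-miR-92a-3p, where 54.2% (DP vs. LG) and 43.5% (LL vs. LG) of miRNAs were called, and the nearest was chi-miR-20a-5p in DP vs. LG at 0.69 (SE 0.28, unadjusted p = 0.0331, adjusted p = 0.0582), which was called with the replicate block and without DP replicate 2. The 5 values of LL vs. LG ranged from -0.37 to 0.19, with SE between 0.21 and 0.45.

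**Figure D4:**
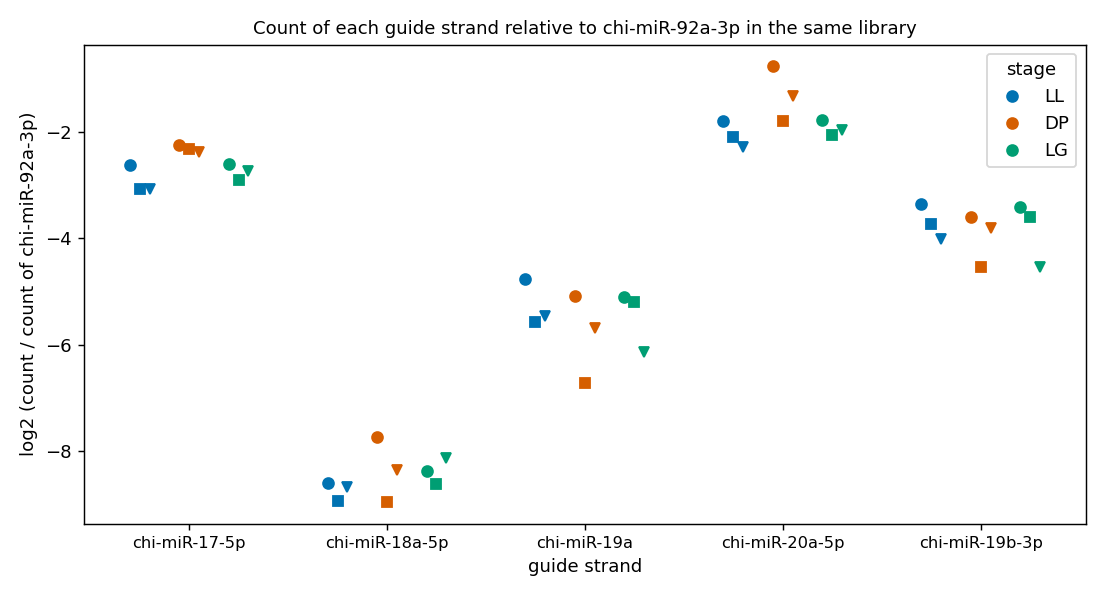
Count of each other guide strand relative to chi-miR-92a-3p in the same library, on a log2 scale, by stage (color) with circles, squares and triangles for replicates 1, 2 and 3. For chi-miR-17-5p all DP libraries lie above all LL and LG libraries, and for chi-miR-19a and chi-miR-19b-3p DP replicate 2 and LG replicate 3 are the lowest of their stages.

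The passenger strand is the arm of a hairpin that is mostly discarded, and its count is a further product of the same transcript. Of the 6 passenger strands, 5 were in the table and all 5 were tested, and chi-miR-19a-5p was not analyzed here. They were scarce, at 6 to 244 counts per library. The level of chi-miR-17-3p was 2.20, 2.51 and 3.45 CPM in LL, 1.44, 1.47 and 1.96 CPM in DP and 4.32, 3.51 and 5.53 CPM in LG. The 3 stages did not overlap, and chi-miR-17-3p was lower in DP vs. LG, at -1.45 on the log2 scale (SE 0.35, adjusted p = 0.00835). It was the only passenger strand called by the edgeR fit as reported, 1 of 5 in a comparison where 11.1% of tested miRNAs were called lower, and 3 of 19 alternatives (DESeq2, library size only and only these 2 stages fitted) also called it lower in LL vs. LG. The nearest other value was that of chi-miR-19b-5p in LL vs. LG, at -1.25 (SE 0.38, adjusted p = 0.0503), with 6 to 8 counts in the LL libraries. It was called lower there in 9 of 18 alternatives and in DP vs. LG in 5 of 18, DESeq2 among them in both. With at least 10 counts in every library, chi-miR-18a-3p and chi-miR-20a-3p were also called lower in DP vs. LG. All 5 passenger strands had negative log2 fold changes in DP vs. LG, from -1.45 to -0.43 with a median of -0.58, where the median of all tested miRNAs was 0.18, and in LL vs. LG, from -1.25 to -0.32 with a median of -0.64, where that of all tested miRNAs was 0.17.

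The share of the passenger strand among the counts of both arms differed widely between hairpins. It was 43.7% ± 8.98 in LL, 38.6% ± 14.6 in DP and 32.0% ± 2.63 in LG for MIR18A (SD, n = 3). In LL replicate 2 (66 against 56 counts) and DP replicate 2 (88 against 72 counts) chi-miR-18a-3p outnumbered chi-miR-18a-5p, so that the strand named as the guide was not the more frequent arm in every library. It did not exceed 1.49% in any library for MIR17, MIR20A, MIR19B and MIR92A. For MIR17 the passenger strand made up 1.21% ± 0.259 in LL, 0.571% ± 0.131 in DP and 1.02% ± 0.249 in LG (SD, n = 3), and the DP libraries lay below all others. For MIR20A it made up 0.336% ± 0.0359 in LL, 0.195% ± 0.00485 in DP and 0.225% ± 0.0234 in LG, on 15 to 70 counts. The other hairpins did not share this order. For MIR19B the share was 0.352% ± 0.0585 in LL, 0.652% ± 0.142 in DP and 0.573% ± 0.257 in LG, with DP above LL without overlap on 6 to 16 counts. For MIR92A it was 0.173% ± 0.0309, 0.233% ± 0.0890 and 0.161% ± 0.0691, and the stages overlapped.

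The related cluster miR-106a-363 carries copies of the same families. Its hairpins lie on a sequence that is not assigned to a chromosome in ARS1.2. Of its 5 listed miRNAs, chi-miR-106a-5p, chi-miR-20b, chi-miR-92b and chi-miR-363-3p were tested, and chi-miR-18b-5p, with 1 to 11 counts per library, was not. Apart from chi-miR-92b, they were scarce beside the members: chi-miR-20b, of the miR-17 family, had 4.65% to 5.97% of the count of chi-miR-20a-5p in LL, 1.02% to 1.33% in DP and 1.78% to 2.10% in LG. Likewise, chi-miR-106a-5p had 8.20% to 8.65% of the count of chi-miR-17-5p in LL, 1.98% to 4.08% in DP and 3.19% to 3.82% in LG. In both ratios every LL library stood above every DP and LG library. All 4 miRNAs of these ratios belong to the miR-17 family.

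In DP vs. LG, all 4 tested miRNAs of miR-106a-363 were lower in DP, where 11.1% of tested miRNAs were called lower, with log2 fold changes from -1.55 to -0.99, as were 5 of 6 members of miR-17-92. The call of chi-miR-106a-5p was lost without LG replicate 1 and with only these 2 stages fitted. Against LL, 3 of the 4 were lower in DP, where 12.9% of tested miRNAs were called lower and no member of miR-17-92 was. The level of chi-miR-20b was 23.8, 19.8 and 19.8 CPM in LL, 7.34, 6.34 and 7.15 CPM in DP and 18.4, 12.4 and 14.9 CPM in LG. DP lay far below the other stages, and the log2 fold change in DP vs. LL was -1.60 (SE 0.28, adjusted p = 0.00203). The same value was -1.24 for chi-miR-106a-5p (SE 0.30, adjusted p = 0.0108) and -1.74 for chi-miR-363-3p (SE 0.28, adjusted p = 0.00121), a relative of miR-92a. With scaling by library size alone the value of chi-miR-106a-5p was -0.85 and did not pass (adjusted p = 0.0790). Between LL and LG, chi-miR-20b, chi-miR-106a-5p and chi-miR-363-3p were at 0.47, 0.25 and 0.20 and did not pass. The remaining one, chi-miR-92b, was lower in LL at -0.85 (SE 0.21, adjusted p = 0.0233), as were 4 members of miR-17-92, and its call was lost without LL replicate 1 or 2 or LG replicate 1. Scaling by library size alone turned the values of the first 3 to -0.11, -0.32 and -0.40.

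Relative to chi-miR-17-5p within each library, a reference added after seeing the data, the differences between miRNAs of the 2 clusters were tested directly. In DP vs. LL, chi-miR-20b was lower relative to chi-miR-17-5p by -1.95 on the log2 scale (SE 0.27, adjusted p = 0.000955), chi-miR-106a-5p by -1.58 (SE 0.32, adjusted p = 0.00625) and chi-miR-363-3p by -2.08 (SE 0.28, adjusted p = 0.000955), where 17.0% of miRNAs were called lower on this scale. For LL vs. LG the same ratios were higher in LL, by 1.45 for chi-miR-20b (SE 0.26, adjusted p = 0.00197), 1.23 for chi-miR-106a-5p and 1.16 for chi-miR-363-3p, but 52.7% of miRNAs were called higher on this scale, since chi-miR-17-5p itself was lower in LL. These 6 calls held without any 1 library and with the replicate block. Of chi-miR-92b the value was -0.82 in DP vs. LL (SE 0.19, adjusted p = 0.0141, lost without LL replicate 2) and 0.11 in LL vs. LG (SE 0.19, adjusted p = 0.631), which did not pass. Between DP and LG, chi-miR-363-3p (-0.92) and chi-miR-92b (-0.71) were lower on this scale, where 4.89% of miRNAs were called lower, while chi-miR-20b (-0.50) and chi-miR-106a-5p (-0.35) did not pass. The call of chi-miR-363-3p was lost without LG replicate 1, 2 or 3 and that of chi-miR-92b without LG replicate 2, while chi-miR-106a-5p was called without DP replicate 1. On this scale chi-miR-92a-3p was lower in DP vs. LL by -0.62 (SE 0.19, adjusted p = 0.0400), a call that was lost in 8 of the 9 fits without 1 library, LL replicate 1 being the exception.

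The miRNA listed as chi-miR-92b calls for separate reading. Its hairpin lies between MIR363 and MIR20B, and its level followed that of chi-miR-92a-3p with a Pearson correlation of 0.99 over the 9 libraries, which share their depth and scaling between both miRNAs. Its count was 85.0% to 85.7% of that of chi-miR-92a-3p in LL, 73.0% to 75.9% in DP and 89.0% to 91.6% in LG, with no overlap between stages. Reads that match both miRNAs cannot be told apart by their names in the table, so the values of chi-miR-92a-3p and chi-miR-92b are uncertain as those of separate miRNAs. In the fit relative to chi-miR-92a-3p, chi-miR-92b was not called in any comparison, with values from -0.27 to -0.078 and SE of 0.16. This SE was alike in each comparison, although the count ratio had an SD of only 0.0035 in LL, 0.015 in DP and 0.014 in LG. The missing calls therefore do not show a constant ratio. No miRNA of the table had counts equal to those of a member in all libraries.

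The cluster miR-106b-25, which lies on chromosome 25 between positions 37229609 and 37230104, carries further miRNAs of 2 of these families. Its members chi-miR-106b-5p and chi-miR-93-5p belong to the miR-17 family and chi-miR-25-3p to the miR-92a family. In DP vs. LG, 0 of 3 were called by edgeR, where 34.8% of tested miRNAs were called, 0 had an unadjusted p under 0.05, and the log2 fold changes ranged from -0.15 to 0.12. In the alternatives chi-miR-25-3p reached -0.56 and chi-miR-93-5p -0.52 without a call, and chi-miR-106b-5p turned negative in 14 of 19. Against LL, 2 of 3 were higher in DP, where 17.2% of tested miRNAs were called higher. The level of chi-miR-106b-5p was 66.0, 58.9 and 72.5 CPM in LL, 138, 121 and 128 CPM in DP and 110, 101 and 144 CPM in LG. DP lay above LL without overlap, by 0.97 on the log2 scale (SE 0.24, adjusted p = 0.0110), a call that was lost without LL replicate 2 and with only these 2 stages fitted. That of chi-miR-93-5p was 0.62 (SE 0.21, adjusted p = 0.0441), a call that was lost in 16 of 19 alternatives. The third, chi-miR-25-3p, was at 0.67 (SE 0.27, adjusted p = 0.0866) without overlap and was called in 2 of 19 alternatives. Between LL and LG, chi-miR-106b-5p (-0.85) and chi-miR-93-5p (-0.77) were lower in LL, as was chi-miR-17-5p, where 4.89% of tested miRNAs were called lower, and both calls were lost without any 1 of LL replicates 1, 2 and 3 and LG replicates 1 and 3. There chi-miR-25-3p was at -0.74 (SE 0.27, adjusted p = 0.0866), again without overlap, and was called lower in 10 of 19 alternatives, DESeq2 among them. Relative to chi-miR-17-5p, none of the 3 was called by edgeR in DP vs. LL (0.25 to 0.62, lowest adjusted p = 0.0992, with 1 unadjusted p under 0.05) or in LL vs. LG (0.11 to 0.21). On the same scale chi-miR-106b-5p was higher in DP than in LG by 0.73 (SE 0.25, adjusted p = 0.0428), where 36.7% of miRNAs were called higher, and this call was lost in 8 of 10 alternatives. Relative to chi-miR-92a-3p, chi-miR-106b-5p (1.22, adjusted p = 0.0114) and chi-miR-93-5p (0.85, adjusted p = 0.0201) were called higher in DP vs. LL, where 22.9% of miRNAs were. In DP vs. LG they were also called, at 1.17 (adjusted p = 0.00635) and 0.88 (adjusted p = 0.00890), where 51.1% were called higher. Neither passed on that scale in LL vs. LG.

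Within the miR-92a family, chi-miR-25-3p had 0.828 to 1.15 times the count of chi-miR-92a-3p in LL, 1.33 to 2.28 times in DP and 0.832 to 1.19 times in LG. Every DP library was above every LL and LG library. In the fit relative to chi-miR-92a-3p it was higher in DP vs. LG by 0.92 (SE 0.25, adjusted p = 0.0120) and in DP vs. LL by 0.88 (SE 0.25, adjusted p = 0.0253), where 51.1% and 22.9% of miRNAs were called higher. The first call was lost without LG replicate 1 or 2, and the second without LL replicate 2 or 3 or DP replicate 2. Its value for LL vs. LG was 0.039 (SE 0.25, adjusted p = 0.907).

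Across the 9 libraries, which share their stage, depth and scaling between all miRNAs, the log2 levels of the members followed each other to unequal degrees. The Pearson correlation was highest between chi-miR-19a and chi-miR-19b-3p at 0.95. It was 0.83 between chi-miR-17-5p and chi-miR-20a-5p, which share a seed, and as high or nearly so between members of different families, at 0.85 for chi-miR-18a-5p with chi-miR-20a-5p, 0.80 for chi-miR-17-5p with chi-miR-18a-5p and 0.79 for chi-miR-17-5p with chi-miR-92a-3p. It was lowest between chi-miR-17-5p and chi-miR-19a, at 0.36.

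Of the 299 other miRNAs whose mean reached 10 CPM, those most like a member were partly shared between members, also across families. For chi-miR-17-5p the most alike were chi-miR-93-5p (0.84), of the same seed family, chi-let-7d-3p (0.81) and a predicted miRNA (0.80). For chi-miR-20a-5p, chi-miR-34a (0.86) and chi-miR-542-3p (0.86) followed another predicted miRNA (0.87), and for chi-miR-18a-5p, chi-miR-3959-3p (0.89) stood between 2 predicted miRNAs (0.91 and 0.84). The lower of these 2 was the same predicted miRNA as for chi-miR-17-5p. For chi-miR-19a they were chi-miR-409-3p (0.86), chi-miR-30f-3p (0.85) and chi-miR-30e-5p (0.85). For chi-miR-19b-3p they were chi-miR-30f-3p (0.84), chi-miR-30f-5p (0.84) and chi-miR-409-3p (0.81). After chi-miR-92b, chi-miR-92a-3p was most like chi-miR-30f-5p (0.92) and chi-miR-296-3p (0.90).

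The label of the tissue was set against miRNAs that mark cell types. The 5 epithelial miRNAs in the table, of the miR-200 family, were abundant in all libraries, with a summed level of 34890 to 42110 CPM in LL, 13060 to 20810 CPM in DP and 34220 to 37560 CPM in LG. All 5 were lower in DP than in LG and than in LL, where 11.1% and 12.9% of tested miRNAs were called lower, and 1 of 5, chi-miR-200a at -0.65 (SE 0.20, adjusted p = 0.0484), was lower in LL vs. LG, where 4.89% of tested miRNAs were called lower and the other 4 markers ranged from -0.65 to 0.38. The 4 fibroblast miRNAs, of miR-199a and miR-214, were all higher in DP vs. LG, where 23.7% of tested miRNAs were called higher, and in DP vs. LL, where 17.2% were, with sums of 4847 to 10480 CPM in LL, 17280 to 29960 CPM in DP and 4401 to 4983 CPM in LG. The sum over 3 of 5 immune miRNAs was 581 to 740 CPM in LL, 767 to 1935 CPM in DP and 243 to 360 CPM in LG, that over 3 red blood cell miRNAs 365 to 551, 122 to 1284 and 87.1 to 168 CPM, that over 2 endothelial miRNAs 15850 to 22980, 19030 to 31970 and 14720 to 16360 CPM, and that over 4 muscle miRNAs 672 to 879, 907 to 3400 and 383 to 495 CPM. The red blood cell sum was mostly chi-miR-451-5p and the muscle sum mostly chi-miR-1. In DP vs. LG 1 of 3 red blood cell, 2 of 2 endothelial and 2 of 4 muscle miRNAs were called higher. There chi-miR-451-5p was at 2.29 with overlapping libraries and chi-miR-144-3p at 0.073. In DP vs. LL only chi-miR-206 of these 3 lists was called, and in LL vs. LG none was. Of the immune miRNAs, chi-miR-150 was higher in DP vs. LL with overlapping libraries, whereas chi-miR-155-5p (0.81) and chi-miR-223-3p (-1.06) did not pass. All 3 were higher in DP vs. LG without overlap, by 2.02 to 2.26, and chi-miR-155-5p (1.41) and chi-miR-223-3p (3.08) were higher in LL vs. LG, where 9.77% of tested miRNAs were called higher. No marker had 0 counts in any library. In these whole tissue samples fewer cells of a type and less RNA per cell cannot be told apart, and the part of these markers in the differences of the cluster was not tested.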

How the data were processed

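Mature miRNA counts of 9 small RNA libraries (LL, DP and LG, 3 goats each) were analyzed, grouped by the sample labels. According to the methods of the study, the authors aligned reads to the goat genome with miRDeep2, merged known miRNAs of miRBase with predicted ones and counted reads with its quantifier. The submitters' processing notes name FastQC 0.11.9, cutadapt 4.2 and Bowtie 1.1.1. The deposited values are raw counts per miRNA without normalization. LL replicate 3 was read as a deposited expected count column, because 2 values were not whole, and these were rounded. The FPKM filter of the study was not applied, since the values are counts.

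A miRNA entered the test if 3 or more libraries held at least 0.5 CPM of it, which left 696, and these were tested with edgeR 4.0.16 (quasi-likelihood test, TMM scaling, R 4.3.3) in 1 fit over all libraries with stage as the only term. P-values were adjusted by Benjamini-Hochberg over all tested miRNAs. A miRNA was called at an adjusted p under 0.05, and was a DE-miRNA if its absolute log2 fold change also exceeded 1. The SE was taken from the fold change and the F statistic. Ratios were tested with the count of chi-miR-92a-3p or, added after seeing the data, chi-miR-17-5p as library size. Correlations used log2 CPM with a prior count of 2. Named were all guide strands, their passenger strands, the listed relatives, and for each guide strand the 3 most correlated miRNAs, predicted ones by their correlation alone. Cell type markers were listed by name. The members and lists were chosen with earlier results of these data known. Positions come from the RefSeq annotation of ARS1.2, and mature sequences were not used here. The fits were repeated with DESeq2 1.42.0 and with voom from limma 3.58.1, with other scalings and filters, with only 2 stages, with a replicate block and without each library in turn. The scripts were tested on simulated data. P-values measure the spread between goats of 1 stage. PCR reads are not independent molecules, and the floor of 3 counts covers counting error only.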

Additional observations from a re-analysis of the deposited data

How the results depend on the processing

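The direction of all 6 members in DP vs. LG and in LL vs. LG was the same in all 19 alternatives, and chi-miR-92a-3p in DP vs. LG kept its call in each. With only 2 stages fitted, 3 members were called in DP vs. LG, and in LL vs. LG 188 miRNAs were called, 141 of them DE-miRNAs. In LL vs. LG the number of DE-miRNAs among members, 1 as reported, was 3 with DESeq2, upper quartile or median-of-ratios scaling or with chi-miR-148a-3p left out before TMM, 4 without a filter, with at least 10 counts in every library or with only 2 stages, and 5 with library size only. In DP vs. LL library size only called 2 members, and it moved the median log2 fold change of all tested miRNAs to -0.022 (DP against LG), 0.49 (DP against LL) and -0.42 (LL against LG).

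Leaving out 1 library at a time gave 155 to 285 called miRNAs in DP vs. LG (242 as reported), 125 to 218 in DP vs. LL (210) and 33 to 167 in LL vs. LG (102, with DE-miRNAs from 33 to 125). Members called ranged from 1 to 6 in DP vs. LG (DE-miRNAs from 1 to 4), 0 to 1 in DP vs. LL and 0 to 4 in LL vs. LG (DE-miRNAs from 0 to 4). Members changed relative to chi-miR-92a-3p ranged from 0 to 1 in DP vs. LG and 0 to 1 in DP vs. LL. Replicate numbers were not taken to pair the samples, since same-numbered libraries come from different goats, no label gives the number a meaning, and only 3 of 9 pairs correlated over 0.1 (-0.10 to 0.21). As a hint from the data, 6 of 9 libraries matched their own number best. With the replicate block 4 members were called in DP vs. LG, without chi-miR-17-5p, and 1 relative to chi-miR-92a-3p, chi-miR-20a-5p.

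These values changed sign, none of them called as reported, and the cause was not tested. In DP vs. LG, chi-miR-106b-5p was -0.077 with DESeq2, -0.028 with upper quartile, -0.077 with median-of-ratios, -0.092 with library size only, -0.18 without chi-miR-148a-3p, -0.23 without a filter, -0.23 with at least 10 counts, and -0.11 to 0.11 without 1 library. Library size only gave 0.094 for chi-miR-92a-3p, 0.11 for chi-miR-18a-3p and 0.11 for chi-miR-20a-3p in DP vs. LL, and -0.32 for chi-miR-106a-5p, -0.11 for chi-miR-20b and -0.40 for chi-miR-363-3p in LL vs. LG. In the latter, no filter gave -0.066 for chi-miR-106a-5p and -0.12 for chi-miR-363-3p, for which at least 10 counts gave -0.047 and only 2 stages -0.019. Without 1 library, DP vs. LG relative to chi-miR-92a-3p spanned -0.27 to 0.34 for chi-miR-18a-5p, -0.70 to 0.057 for chi-miR-19a and -0.43 to 0.066 for chi-miR-19b-3p. DP vs. LL spanned -0.18 to 0.37 for chi-miR-18a-5p, -0.49 to 0.10 for chi-miR-18a-3p and -0.20 to 0.41 for chi-miR-92a-5p. LL vs. LG spanned -0.059 to 0.25 for chi-miR-106a-5p, -0.10 to 0.20 for chi-miR-363-3p, -0.10 to 0.37 for chi-miR-19a and -0.17 to 0.33 for chi-miR-19b-3p relative to chi-miR-92a-3p, -0.086 to 0.22 for chi-miR-25-3p on the same scale, and -0.035 to 0.30 for chi-miR-106b-5p relative to chi-miR-17-5p.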
